A study of Homo sapiens with 16 samples.

Results

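Immediate early transcription factor mRNAs were taken from a RIP-seq study, in which RNA that copurifies with a tagged protein is sequenced. The rule named 10 genes (FOS, FOSB, FOSL1, JUN, JUNB, JUND, EGR1, ATF3, IER2 and MYC), and 8 of them have a row among the 16324 genes of each deposited table. FOS and FOSL1 are not analysed here. The baits were Strep-ALKBH5, the RNA demethylase of the modified base m6A, and Strep-RBM33, an RNA-binding protein, and the control was the tag vector Strep-Vec-1. The labels list 16 libraries: 3 StrepTactin-XT pull-down and 3 input libraries for ALKBH5, 2 and 2 for RBM33, and 3 and 3 for the vector. All were made from cells labelled UM-SCC-1, a head and neck squamous carcinoma line, that had been transduced with lentivirus and selected with puromycin. The bait is thus an introduced, tagged copy in every bait library. Whether replicates are separate cultures is not labelled, and the p-values may therefore cover technical spread alone.

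Immediate early genes are switched on within minutes of a growth factor, stress or serum signal, without new protein synthesis. Their mRNAs are as a rule short-lived, and many carry AU-rich elements that recruit deadenylases. FOS and JUN proteins pair through leucine zippers to form the dimeric factor AP-1, ATF3 is a related stress-induced zipper protein, EGR1 is a zinc finger factor, IER2 is a nuclear regulator of transcription, and MYC dimerises with MAX at E-boxes.

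The files used were the authors' own comparisons, 1 table for the ALKBH5 experiment and 1 for the RBM33 experiment, both labelled siCtrl. For every gene they hold 1 log2 fold change, its F statistic and p-values, and an average level in log2 CPM (read counts scaled to library size) over the libraries of the fit. No library has values of its own in them, so depth per library is unknown and no standard deviation or n can be given. The groups compared and the direction of the ratio are not stated, so positive and negative are used with the tables' own signs. The mRNA of each bait was positive in its own table: ALKBH5 stood at 1.28 in the authors' deposited ALKBH5 table and RBM33 at 3.41 in the authors' deposited RBM33 table. For ALKBH5 this was not particular to the bait, since the authors' deposited ALKBH5 table also had RBM33 mRNA at 1.17 (adjusted p = 7.1e-06). In the authors' deposited RBM33 table ALKBH5 mRNA was not called, at -0.21. These values do not settle the direction. It is not stated whether the tables share libraries, so they are set side by side without a test between them. The approximate standard error (SE) of a log2 fold change was taken as its size divided by the square root of F, with a 95% interval. Being bulk values, they do not separate fewer cells from less RNA per cell.

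The labelled cell type was checked against its markers. Of 19 squamous epithelial markers, 5 have a row in the authors' deposited tables (DSC3, ITGA6, ITGB4 and PERP among them), with average log2 CPM between 1.02 and 5.05 in the ALKBH5 table and between 1.65 and 5.88 in the RBM33 table. The defining markers KRT5, KRT14 and TP63 are not among those 5, so these markers do not bear out the squamous label. Of 12 markers of embryonic kidney lines and neurons, 9 have a row in the authors' deposited tables. Their average log2 CPM lay between 1.30 and 8.10 in the ALKBH5 table and between 1.40 and 7.42 in the RBM33 table. The neurofilament gene NEFL was the highest in each, DPYSL3 was the lowest, and INA, STMN2 and MAGEA4 are not among those 9. The part of these markers in the results was not tested, and neither was the identity of the line. Fibroblast markers had 4 of 8 genes with a row in the authors' deposited tables (at most 4.42 average log2 CPM) and leukocyte markers 2 of 8 (at most 1.69).

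The sequences just upstream of FOSB and EGR1 are shown because these mRNAs stood together at the positive end of both tables. They are the 150 bases before the RefSeq start on the plus strand (GRCh38.p14), at chr19:45467846-45467995 for FOSB and chr5:138465329-138465478 for EGR1. Capitals mark matches to the CArG box, the core of the cAMP response element (TGACGT), the AP-1 site (TGANTCA) and the TATA box (TATAAA), searched on both strands.
FOSB: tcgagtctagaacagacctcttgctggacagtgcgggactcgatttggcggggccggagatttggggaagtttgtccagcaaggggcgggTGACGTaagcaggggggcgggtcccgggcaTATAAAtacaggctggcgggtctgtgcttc
EGR1: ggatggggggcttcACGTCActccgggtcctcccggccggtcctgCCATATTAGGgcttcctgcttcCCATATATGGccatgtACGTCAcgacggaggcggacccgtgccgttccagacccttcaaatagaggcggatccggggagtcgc
The EGR1 window holds 2 CArG boxes, at 105 to 96 and 83 to 74 bases before the start, and 2 matches to the cAMP response element core. FOSB holds 1 core match, at 60 to 55 bases, and a TATA box at 30 to 25 bases. Of the other members searched, JUND holds a core match at 87 to 82 bases and JUNB a TATA box at 31 to 26 bases. The windows of ATF3, JUN and IER2 hold no match, and MYC was not searched. Of 35116 RefSeq promoter windows of this length, 0.769% hold a CArG box, 5.39% the cAMP response element core, 4.17% the AP-1 site and 6.71% the TATA box. The tables hold no measurement of these windows, and a match is a description only.

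FOSB and EGR1 were positive, ATF3 was negative, and JUN, JUNB, JUND, IER2 and MYC were not called in either table. In the authors' deposited ALKBH5 table, 2 of 8 members were positive and 1 was negative at an adjusted p under 0.05, where 30.5% of all genes were positive and 29.1% negative. The authors' deposited RBM33 table also had 2 positive and 1 negative of 8, where 24.0% of all genes were positive and 27.0% negative. With 2 of 8 positive, the share lies near the background in both. The negative share, 1 of 8 or 12.5%, lies below the background in both, a difference that was not tested and rests on few genes. At an adjusted p under 0.01 each table again had 2 members positive and 1 negative; among all genes the positive share was 24.4% and the negative share 23.6% for ALKBH5, and 16.6% and 21.0% for RBM33. A minimum of 1 log2 unit gave the same counts of members, beside 21.0% and 16.2% of all genes in the authors' deposited ALKBH5 table and 17.1% and 16.7% in that for RBM33. Under Holm's adjustment ATF3 alone was called for ALKBH5 (8.11% of all genes were positive and 8.67% negative), and FOSB and EGR1 alone for RBM33 (2.67% and 4.88%). When p was adjusted over the protein-coding genes of at least median abundance, ATF3 was the 1 call among the 5 members left (27.2% and 50.2% of genes were positive and negative for ALKBH5, 23.0% and 49.2% for RBM33). The median log2 fold change of the 8 members was 0.09 in the authors' deposited ALKBH5 table, against 0.03 for all genes and -0.08 for protein-coding genes. In the RBM33 table it was 0.35, against -0.02 for all genes and -0.13 for protein-coding genes, again from the authors' deposited values. The other 5 genes thus stayed uncalled while 3 stood far from 0.

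**Figure D1:**
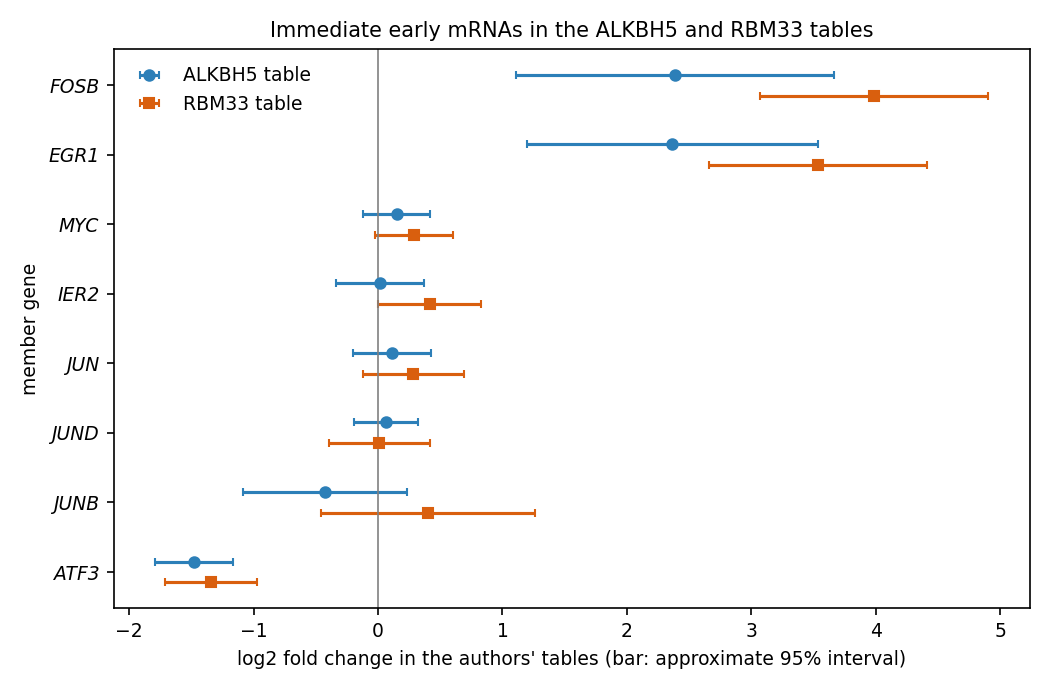
Log2 fold change (horizontal axis) of the 8 listed members in the authors' deposited ALKBH5 table (circles) and RBM33 table (squares), with approximate 95% intervals as bars. FOSB and EGR1 lie right of 0, ATF3 lies left of 0, and the intervals of the other 5 genes include 0.

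FOSB (ENSG00000125740, chromosome 19, 45467995 to 45475179, plus strand, hg38) encodes a FOS family partner of JUN proteins. Its log2 fold change was 2.39 (SE 0.59, 95% interval 1.11 to 3.67) in the authors' deposited ALKBH5 table, a 5.23-fold ratio, with an adjusted p of 0.00343 from edgeR's F test. The authors' deposited RBM33 table had it at 3.99 (SE 0.42, 95% interval 3.07 to 4.90), a 15.9-fold ratio, with an adjusted p of 2.08e-05. Counted from the positive end of the authors' deposited tables, FOSB ranked 1029 of 16324 genes for ALKBH5 and 115 for RBM33. It was scarce, with an average of 2.38 CPM in the ALKBH5 table and 5.95 CPM in the RBM33 table, per the authors' deposited values. The whole 7185 bases of FOSB lie inside ERCC1, a DNA repair gene on the other strand, and the strand setting of the counting is not given. ERCC1 drew more reads, at 25.9 and 26.7 CPM, with log2 fold changes of -0.32 (adjusted p = 0.133) and -0.04 (adjusted p = 0.89) in the authors' deposited ALKBH5 and RBM33 tables. ERCC1 was thus not called in either table, and its part in the values of FOSB was not tested.

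EGR1 (ENSG00000120738, chromosome 5, 138465479 to 138469303, plus strand) encodes a zinc finger factor of the serum and growth factor response. It stood at 2.37 (SE 0.54, 95% interval 1.20 to 3.54) in the authors' deposited ALKBH5 table, a 5.16-fold ratio, with an adjusted p of 0.00194. For RBM33 the authors' deposited table gave 3.54 (SE 0.40, 95% interval 2.66 to 4.41), an 11.6-fold ratio, with an adjusted p of 3.35e-05. Per the authors' deposited tables, its level averaged 3.29 CPM (ALKBH5) and 6.76 CPM (RBM33). No other listed gene overlaps EGR1. Among protein-coding genes of the lowest abundance quintile, where FOSB and EGR1 lie in the authors' deposited ALKBH5 table, 21.7% were positive and the median log2 fold change was 0.29. In the authors' deposited RBM33 table FOSB lay in the lowest quintile (14.9% positive) and EGR1 in the next (25.1% positive). Both genes had larger values for RBM33 than for ALKBH5, and their 95% intervals overlapped between the tables. That difference was not tested.

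ATF3 (ENSG00000162772, chromosome 1, 212565334 to 212620777, plus strand), a repressor and activator induced by stress through the integrated stress response, lay on the negative side. Its log2 fold change was -1.48 (SE 0.14, 95% interval -1.79 to -1.16) in the authors' deposited ALKBH5 table, with an adjusted p of 1.64e-06. The authors' deposited RBM33 table had -1.35 (SE 0.17, 95% interval -1.71 to -0.98), with an adjusted p of 6.29e-05. The ratio is thus 0.359 for ALKBH5 and 0.394 for RBM33. By average CPM, not divided by length, ATF3 stood above 98.5% (ALKBH5) and 99.3% (RBM33) of protein-coding genes in the authors' deposited tables, at 395 and 581 CPM. Negative values were common at that level: 59.3% of protein-coding genes in the top abundance quintile were negative in the authors' deposited ALKBH5 table (median -0.57) and 57.6% in the RBM33 table (median -0.61). ATF3 spans 55444 bases, of which its listed exons cover 7.29%.

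**Figure D2:**
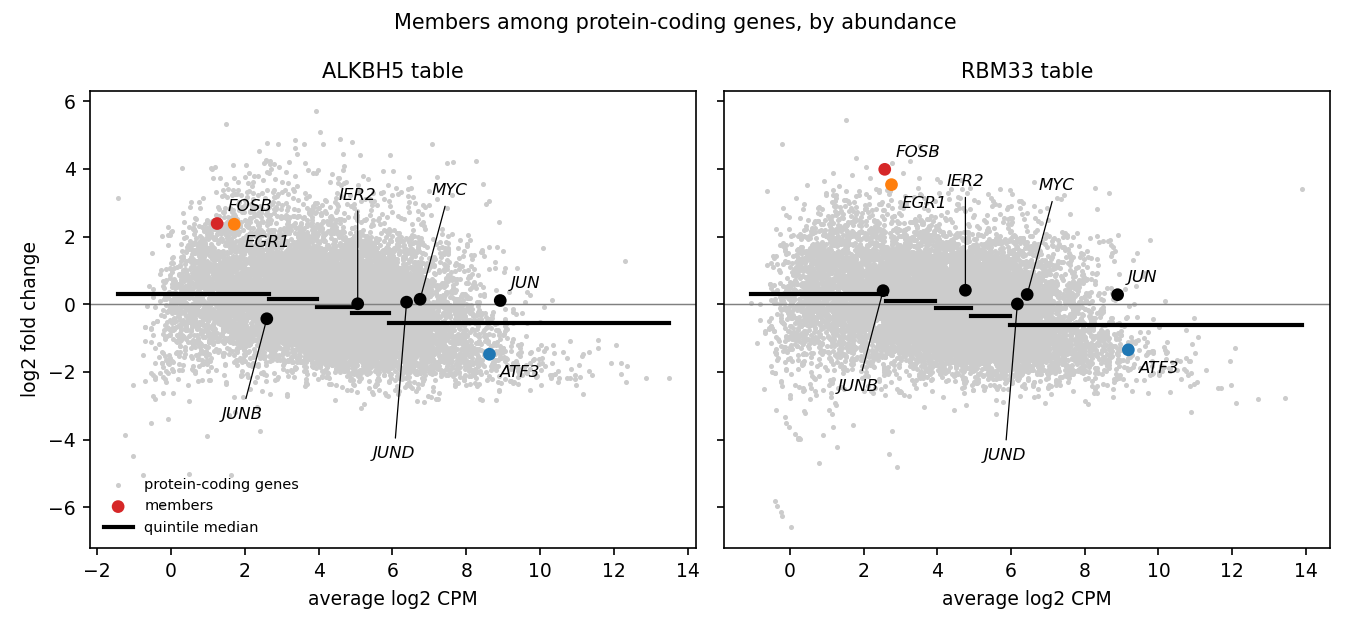
Log2 fold change against average log2 CPM of protein-coding genes (grey) and the 8 members (named, with FOSB red, EGR1 orange, ATF3 blue and the others black) in the authors' deposited tables. Black lines are abundance quintile medians, which run from 0.29 to -0.57 for ALKBH5 and from 0.29 to -0.61 for RBM33, and ATF3 and JUN lie at the abundant end on either side of the last line.

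The JUN family, the partners of FOS proteins, had no called member. JUN (ENSG00000177606, chromosome 1, 58776845 to 58784048, minus strand) stood at 0.11 (95% interval -0.20 to 0.42) in the authors' deposited ALKBH5 table, with an adjusted p of 0.527. It stood at 0.28 (95% interval -0.12 to 0.69) in the authors' deposited RBM33 table, with an adjusted p of 0.226. JUN averaged 484 CPM (ALKBH5) and 475 CPM (RBM33) in the authors' deposited tables, and its narrow intervals exclude a value as far from 0 as that of ATF3. JUND (ENSG00000130522, chromosome 19, 18279694 to 18281622, minus strand), the family member that is as a rule expressed without stimulation, had 0.06 (95% interval -0.19 to 0.32, adjusted p = 0.671) in the authors' deposited ALKBH5 table. Its value in the authors' deposited RBM33 table was 0.01 (95% interval -0.40 to 0.42, adjusted p = 0.97). JUNB (ENSG00000171223, chromosome 19, 12791486 to 12793315, plus strand), which often opposes JUN in control of proliferation, had different signs with wide intervals. It was at -0.43 (95% interval -1.09 to 0.23, adjusted p = 0.245) in the authors' deposited ALKBH5 table. The authors' deposited RBM33 table had it at 0.40 (95% interval -0.46 to 1.26, adjusted p = 0.419). JUNB was scarce, at 6.06 and 5.78 CPM for ALKBH5 and RBM33 in the authors' deposited tables. Its 1830 bases lie wholly inside HOOK2, a microtubule linker gene on the other strand, which was positive at 1.66 (adjusted p = 7.86e-06) and 1.06 (adjusted p = 0.00423) in the authors' deposited ALKBH5 and RBM33 tables. HOOK2 averaged 24.9 and 15.8 CPM there, and its part in the values of JUNB was not tested.

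MYC (ENSG00000136997, chromosome 8, 127735434 to 127742951, plus strand), the growth-promoting factor whose mRNA is a classic substrate of rapid decay, was at 0.15 (95% interval -0.12 to 0.42, adjusted p = 0.318) in the authors' deposited ALKBH5 table. In the authors' deposited RBM33 table MYC was at 0.29 (95% interval -0.02 to 0.60, adjusted p = 0.112). IER2 (ENSG00000160888, chromosome 19, 13150411 to 13154911, plus strand) stood at 0.02 (95% interval -0.34 to 0.37, adjusted p = 0.942) in the authors' deposited ALKBH5 table. Of the uncalled genes it came nearest to the threshold, at 0.42 (95% interval -0.0003 to 0.83) with an adjusted p of 0.0882, in the authors' deposited RBM33 table. MYC averaged 107 and 86.7 CPM, and IER2 33.3 and 27.1 CPM, for ALKBH5 and RBM33 in the authors' deposited tables. The upper bounds of all 4 intervals lie below 1 log2 unit, far from the values of FOSB and EGR1.

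To compare levels between genes, average CPM was divided by listed gene length in kilobases. In the authors' deposited ALKBH5 table the order was JUN at 133 CPM per kilobase, ATF3 at 97.8, JUND at 43.2, MYC at 23.4, IER2 at 10.8, JUNB at 3.31, EGR1 at 1.05 and FOSB at 0.429. The authors' deposited RBM33 table gave ATF3 at 144 CPM per kilobase, JUN at 131, JUND at 37.4, MYC at 18.9, IER2 at 8.81, JUNB at 3.16, EGR1 at 2.15 and FOSB at 1.07. Only JUN and ATF3 exchange places between these orders. Without values per library, no spread is available to say which neighbours differ. The 2 genes with the highest log2 fold changes were the 2 lowest in level by this measure. Before the division by length, JUNB was lowest in the authors' deposited RBM33 table, at 5.78 CPM. FOSB stood at 5.95 CPM and EGR1 at 6.76 CPM there.

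Values in both tables depended on listed gene length, so the members were also set against protein-coding genes of the same length quintile. JUNB and JUND are short, at 1830 and 1929 listed bases that fill their whole span. In the shortest quintile the median log2 fold change was -0.81 in the authors' deposited ALKBH5 table and -0.90 in the RBM33 table. JUND thus lay 0.88 and 0.91 above its length class for ALKBH5 and RBM33, although its own value in the authors' deposited tables was near 0. JUNB lay 0.39 and 1.30 above the same medians. EGR1, with 3137 listed bases, lay 2.73 and 3.98 above genes of its class (medians -0.36 and -0.45), of which 15.6% and 9.58% were positive in the authors' deposited ALKBH5 and RBM33 tables. FOSB, with 5553 listed bases, lay 2.46 and 4.12 above its class, and ATF3, with 4040, lay at -1.12 and -0.90 against its class in the authors' deposited ALKBH5 and RBM33 tables. Relative to length, then, 7 of 8 members lay above their class median in each table, and ATF3 lay below. Any class has as many genes above its median as below it, and the count was not tested. JUNB is among the 7 for ALKBH5, although its value in the authors' deposited table was -0.43. Against its abundance quintile there it lay at -0.72.

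**Figure D3:**
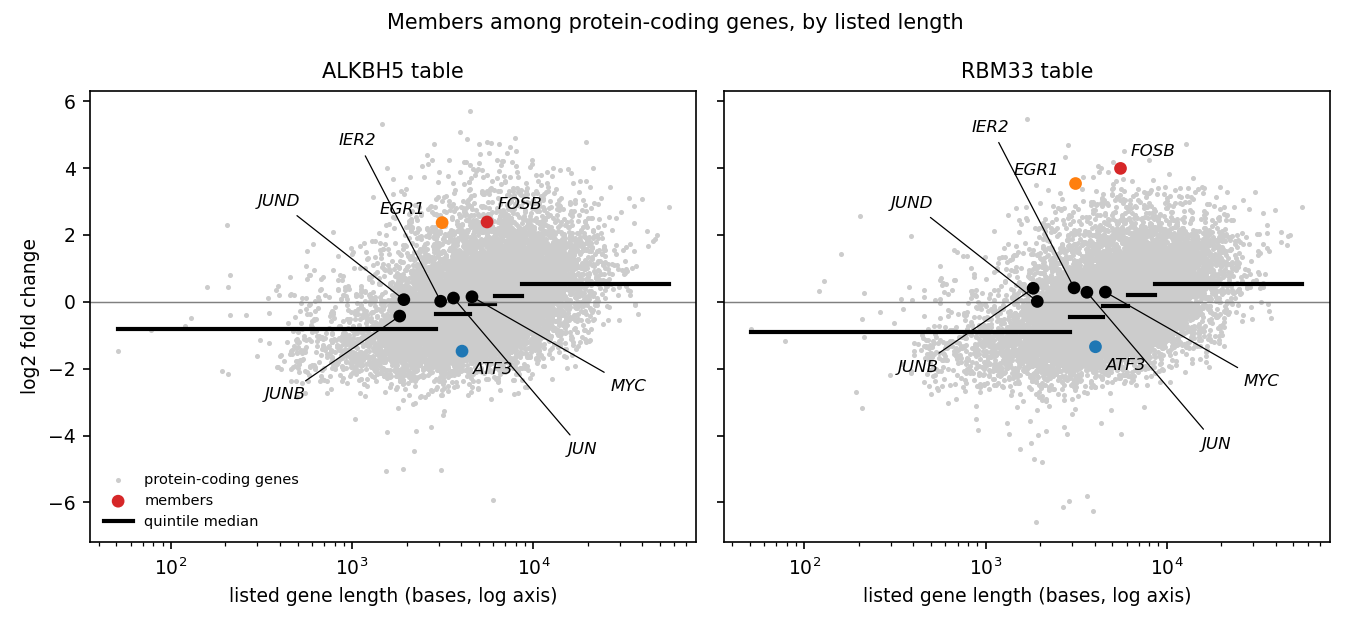
Log2 fold change against listed gene length (log axis) of protein-coding genes (grey) and the 8 members (colours: FOSB red, EGR1 orange, ATF3 blue, others black) in the authors' deposited tables. Black lines are length quintile medians, which run from -0.81 to 0.54 for ALKBH5 and from -0.90 to 0.54 for RBM33, and ATF3 is the 1 member below the line of its quintile.

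The genes with values most like those of the outermost members were sought by Euclidean distance over the 2 log2 fold changes, among 6224 protein-coding genes of at least median abundance in both tables. Nearest to FOSB were BICRA, a subunit of a SWI/SNF complex (2.65 and 3.24, distance 0.79), KMT2D, a histone methyltransferase (2.97 and 3.27, distance 0.92), and LAMA5, a laminin chain (3.11 and 3.29, distance 1.01), for ALKBH5 and RBM33 in the authors' deposited tables. Among the 3 nearest to ATF3 were BEX4 (-1.49 and -1.36, distance 0.02) and CU639417.1 (-1.47 and -1.33, distance 0.02) in the same authors' deposited tables. The neighbours of FOSB were less close than those of ATF3. FOSB itself lies below median abundance, so genes of its own level were not candidates, and neither were other members. The distances therefore do not show which gene has the closer neighbours.

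Other primary response genes were examined as a list of 51, of which 45 have a row. The authors' deposited ALKBH5 table had 14 of them positive, 5 negative and 26 uncalled, and a median of 0.30. The authors' deposited RBM33 table had 12 positive, 4 negative and 29 uncalled genes and a median of 0.43. The share of negative calls, 11.1% and 8.89%, was below that of all genes (29.1% and 27.0%), and less far below the 20.2% and 16.8% of protein-coding genes in the abundance quintile that holds the list's median level (3.18 and 3.15 average log2 CPM). The share of positive calls, 31.1% and 26.7%, lay near the 30.5% and 24.0% of all genes. These differences were not tested. ZFP36L1, which encodes a protein that binds AU-rich elements and triggers mRNA decay, had the smallest p among the positive calls, at 1.24 (adjusted p = 1.79e-05) and 1.06 (adjusted p = 0.000884) in the authors' deposited ALKBH5 and RBM33 tables. Its relative ZFP36L2 was positive at 1.09 (adjusted p = 5.89e-05) and 1.06 in the authors' deposited ALKBH5 and RBM33 tables. The clock repressor PER1 was positive at 1.04 and 1.11 (adjusted p = 0.000932 for RBM33) in the authors' deposited ALKBH5 and RBM33 tables. On the negative side, GADD45A, a growth arrest gene induced by DNA damage, had -1.78 (adjusted p = 2.19e-07) and -2.05 (adjusted p = 5.41e-06) in the authors' deposited ALKBH5 and RBM33 tables. HES1, a Notch target, had -1.11 (adjusted p = 2.67e-05) and -1.22 (adjusted p = 0.000304) there. FOSL2, the other FOS family gene with a row, was chosen after its value was seen: it was positive at 1.50 (adjusted p = 0.00168) and 1.11 (adjusted p = 0.0109) in the authors' deposited ALKBH5 and RBM33 tables.

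Of 43 other zipper factors, 41 have a row, with 7 positive and 13 negative genes in the authors' deposited ALKBH5 table (median -0.08), and 5 and 12 in the RBM33 table (median -0.10). The negative shares, 31.7% and 29.3%, lay near those of all genes (29.1% and 27.0%), and the positive shares, 17.1% and 12.2%, were below those of all genes (30.5% and 24.0%), without a test of the difference. The list's median level was 4.00 and 4.17 average log2 CPM. In the abundance quintile that holds it, 30.5% of protein-coding genes were positive and 34.4% negative for ALKBH5. For RBM33 these shares were 24.3% and 29.9%. CREB5, a relative of ATF2, was positive at 0.99 and 0.71, and XBP1, the factor of the unfolded protein response, negative at -1.78 and -1.80 in the authors' deposited ALKBH5 and RBM33 tables. BATF3, which like ATF3 pairs with JUN, was negative at -1.90 (adjusted p = 4.45e-07) and -2.28 (adjusted p = 1.59e-05) there. MAFK, a small MAF protein, was positive at 1.54 in the authors' deposited ALKBH5 table and uncalled at 0.63 in the RBM33 table. MAFK, FOSL2 and MAFF are also on the list of other primary response genes.

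The upstream pathway, from receptor and RAS to MAP kinases and serum response factor, had all 34 genes listed. There were 11 positive and 13 negative genes in the authors' deposited ALKBH5 table (median -0.16), and 12 and 13 (median -0.02) for RBM33. EP300, a coactivator and histone acetyltransferase, was positive at 1.31 and 1.75, and the kinase gene MAPK9 (JNK2, which phosphorylates JUN) negative at -1.42 and -1.51 in the authors' deposited ALKBH5 and RBM33 tables. HRAS was negative at -1.97 and -1.45 in the authors' deposited ALKBH5 and RBM33 tables. MRTFB, a coactivator of serum response factor, was positive at 1.26 and 1.09 there, and CREBBP, the relative of EP300, at 0.66 and 0.92. The list's shares of positive and negative calls were 32.4% and 38.2% for ALKBH5 and 35.3% and 38.2% for RBM33. Among all genes they were 30.5% and 29.1%, and 24.0% and 27.0%. The list's median level was 5.51 and 5.67 average log2 CPM. In the abundance quintile that holds it, 28.4% of protein-coding genes were positive and 45.3% negative for ALKBH5. For RBM33 these shares were 22.7% and 45.8%. The list's negative shares thus lay above those of all genes but below those of that quintile, without a test. SRF is also on the list of other primary response genes, and CREB1 on that of other zipper factors.

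Of 20 MYC network genes 19 have a row, with 5 positive and 7 negative in the authors' deposited ALKBH5 table (median 0.08) and 6 and 7 in the RBM33 table (median -0.09). That is 26.3% and 36.8% for ALKBH5 and 31.6% and 36.8% for RBM33, beside 30.5% and 29.1%, and 24.0% and 27.0%, of all genes. The median level of the network genes was 5.58 and 5.53 average log2 CPM. In the abundance quintile of that level, 28.4% of protein-coding genes were positive and 45.3% negative for ALKBH5. For RBM33 these shares were 22.7% and 45.8%. The negative shares of the network genes lay below those of the quintile, without a test. MNT, a MAX partner that represses MYC targets, was positive at 1.55 (adjusted p = 5.12e-07) and 1.52 (adjusted p = 5.18e-05) in the authors' deposited ALKBH5 and RBM33 tables. MYCBP2, a ubiquitin ligase, was positive at 1.06 and 1.18 in the authors' deposited ALKBH5 and RBM33 tables. TRRAP, a scaffold of histone acetyltransferases that MYC recruits, was positive at 0.74 and 1.26 there. AURKA, a mitotic kinase, was negative at -1.15 and -0.89, and MLX, a MAX-like factor, at -0.84 and -1.14 in the authors' deposited ALKBH5 and RBM33 tables. Genes that bind AU-rich elements or shorten poly(A) tails were all listed (23), with 5 positive and 11 negative in the authors' deposited ALKBH5 table (median -0.31) and 5 and 10 in the RBM33 table (median -0.33). Their negative shares were 47.8% and 43.5%, above the 29.1% and 27.0% of all genes but near the 45.3% and 45.8% of protein-coding genes in the abundance quintile that holds the list's median level (5.71 and 5.88 average log2 CPM). Their positive shares, 21.7% in each table, lay below the 30.5% and 24.0% of all genes. In that quintile the positive shares were 28.4% for ALKBH5 and 22.7% for RBM33. Of the 5 positive genes in each table, ZFP36, ZFP36L1 and ZFP36L2 are also on the list of other primary response genes. PAN2, the catalytic subunit of a deadenylase, was positive at 2.77 and 2.49, whereas HNRNPD, which encodes the AU-rich binding protein AUF1, was negative at -1.50 and -1.55 in the authors' deposited ALKBH5 and RBM33 tables.

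**Figure D4:**
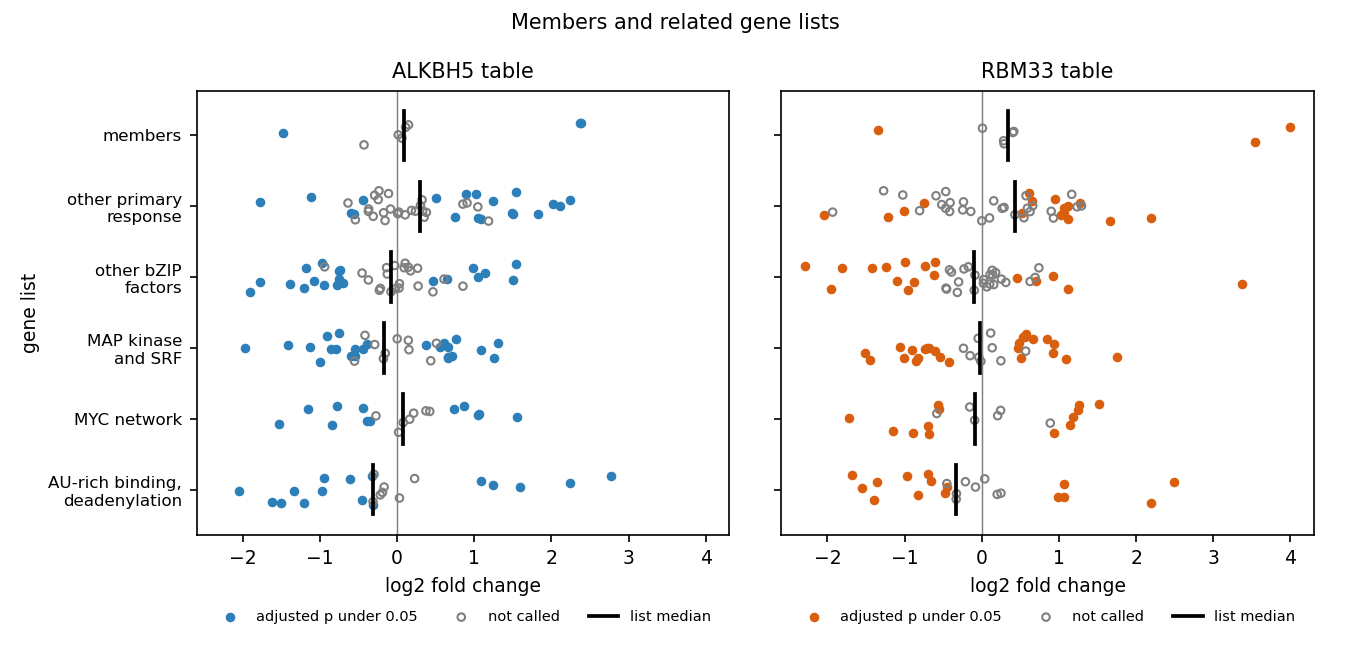
Log2 fold change of the members and of 5 related gene lists, which share some genes, in the authors' deposited ALKBH5 and RBM33 tables. Each point is a gene, filled where the adjusted p is under 0.05, and black bars are list medians: 0.09 and 0.35 for the members, 0.30 and 0.43 for other primary response genes, and -0.31 and -0.33 for AU-rich binding and deadenylation genes.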

How the data were processed

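The submitters' processing notes name edgeR 3.24.3, HISAT2 2.1.0, cutadapt 1.18, Subread 1.6.4 and featureCounts, and build hg38. Annotation release, low-count filter and strand setting: not given in the sources used here. The deposited columns are, per the file headers, a log2 fold change, its F statistic (a score with no fixed range), a p-value, an adjusted p-value and the average level in log2 CPM. Recomputing the Benjamini-Hochberg adjustment over all 16324 genes gave the deposited values. Listed gene length, in bases, is also per the file headers.

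The planned count model could not be used without values per library, so the fallback was taken: a call is the authors' adjusted p under 0.05. Degrees of freedom for intervals were solved from F and p (13.2 for ALKBH5, 11.2 for RBM33), tested on simulated data with Python 3.11.15 and scipy 1.17.1. F is a quasi-likelihood statistic, so the SE is approximate. Older symbols were searched for list genes. The members and lists were chosen with earlier results of these data known. All 8 listed members are named. Of each other list, the text names genes among the 2 smallest p in each direction. FOSL2, genes shared between lists and, for the check of the cell type, markers with or without a row are named outside that rule. Of the 3 nearest genes to the members with the highest and lowest summed value, those reported are named. A few genes that these rules select are not reported here. Alternatives were stricter thresholds, other adjustments and other zero points.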

Additional observations from a re-analysis of the deposited data

How the results depend on the processing

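Requiring an adjusted p under 0.01, or at least 1 log2 unit, left 2 positive members and 1 negative in each of the authors' deposited tables. With Holm's adjustment, 0 members were positive for ALKBH5 and 0 negative for RBM33 (edgeR's unadjusted p under 0.05: 2 and 1 in the authors' deposited tables), while 1 negative remained for ALKBH5 and 2 positive for RBM33. With p-values adjusted over abundant protein-coding genes, 0 members were positive in either table, because FOSB and EGR1 fall below that abundance by construction; 5 members were left, of which 0 were positive and 1 negative at an unadjusted p under 0.05. The members' median moved to 0.43 (ALKBH5) and 0.89 (RBM33) when centred on genes of like length. Centred on genes of like abundance, an alternative chosen after seeing the data, it was 0.65 and 0.76. It moved by less than the typical SE when centred on all protein-coding genes (0.17 and 0.48) or over the 5 abundant members (0.06 and 0.28). No called member changed sign under the 3 centrings. The uncalled JUNB changed from -0.43 to 0.39 for ALKBH5 when centred on genes of like length. No paired analysis was possible because the tables hold no value per library, and for the same reason no replicate could be left out. Depth per library is unknown, and FOSB, EGR1 and JUNB rest on low CPM.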
